A study of Mus musculus with 11 samples.

Results

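The clock genes Dbp, Tef, Per1, Per2, Per3, Nr1d1, Nr1d2, Npas2, Nfil3 and Ciart were followed in the small intestine of mice, the organ named in the series' design text (the sample titles say intestine). They were chosen by symbol, with earlier results of these data known, so their counts beside the shares of all genes are description only. All 10 of 10 were found among the 24250 genes of the expression table. RNA from intestine was sequenced in 11 libraries: 3 from mice labelled ND, read as normal diet, 4 from mice labelled HFD, read as high-fat diet, and 4 from mice given 5 Substances Powder with Poria (the labels spell the numeral as a word), a herbal mixture of Chinese medicine, called FSP here. The labels give no diet for FSP, although the series title speaks of obese mice, and no strain, sex, age, dose, duration, stretch of intestine or hour of sampling for any group. No label says whether each library is its own animal. The p-values therefore reflect only how these samples differ among themselves, which may be technical.

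The circadian clock of mammalian cells is a loop of transcription. CLOCK or its close relative NPAS2 pairs with BMAL1 and switches on genes with an E-box, among them the Per and Cry genes, whose proteins then block that pair. BMAL1 also drives Nr1d1 and Nr1d2, which encode the repressors REV-ERB alpha and beta, and these in turn hold down Bmal1, Npas2 and Nfil3 through elements called ROREs. Dbp, Tef and Hlf encode activators that bind D-boxes, and NFIL3 represses through the same D-boxes. In the intestinal epithelium the clock is known to respond to meal times, and NFIL3 is known for its part in lipid uptake. Genes of the loop peak at different hours, so a level measured once depends on the hour.

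The promoters of the members that passed the test in any comparison are shown first, because the loop is known to act through short promoter elements. Each window holds 250 bases before and 50 after an annotated start (RefSeq, GRCm38.p6, the gene's strand, 5′ to 3′), and 9 of the 10 members had such a window. Capitals mark any match, on either strand, to CACGTG (E-box), TTATGTAA or TTACGTAA (D-box), TAGGTCA or TGGGTCA (RORE core) or TGACGTCA (CRE). The Dbp window lies at chr7:45704997-45705296 on the plus strand, Per1 has 2 windows, at chr11:69098699-69098998 and chr11:69099902-69100201 on the plus strand, Per3 lies at chr4:151044616-151044915 on the minus strand and Nr1d1 at chr11:98775328-98775627 on the minus strand.
Dbp: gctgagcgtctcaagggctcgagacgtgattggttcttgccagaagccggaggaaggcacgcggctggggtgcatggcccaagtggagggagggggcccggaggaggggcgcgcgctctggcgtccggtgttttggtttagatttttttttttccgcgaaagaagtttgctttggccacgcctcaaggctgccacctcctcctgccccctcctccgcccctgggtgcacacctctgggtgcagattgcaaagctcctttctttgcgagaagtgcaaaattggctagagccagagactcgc
Per1 window 1: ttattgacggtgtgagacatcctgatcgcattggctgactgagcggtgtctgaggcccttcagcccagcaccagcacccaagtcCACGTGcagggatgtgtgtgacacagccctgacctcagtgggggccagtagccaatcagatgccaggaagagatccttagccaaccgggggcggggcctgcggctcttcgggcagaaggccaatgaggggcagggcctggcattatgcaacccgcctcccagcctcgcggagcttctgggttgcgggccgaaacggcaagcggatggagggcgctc
Per1 window 2: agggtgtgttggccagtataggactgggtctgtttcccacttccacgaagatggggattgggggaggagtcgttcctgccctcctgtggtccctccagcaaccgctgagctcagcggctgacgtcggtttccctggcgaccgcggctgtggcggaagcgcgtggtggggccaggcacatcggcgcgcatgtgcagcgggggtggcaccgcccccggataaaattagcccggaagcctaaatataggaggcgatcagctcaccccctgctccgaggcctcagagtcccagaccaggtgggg
Per3: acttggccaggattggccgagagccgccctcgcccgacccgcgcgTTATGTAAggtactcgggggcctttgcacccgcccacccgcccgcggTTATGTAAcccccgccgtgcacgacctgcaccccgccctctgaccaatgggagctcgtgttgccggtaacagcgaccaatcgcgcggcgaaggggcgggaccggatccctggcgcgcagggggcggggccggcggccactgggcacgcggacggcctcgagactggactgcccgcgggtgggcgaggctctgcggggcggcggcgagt
Nr1d1: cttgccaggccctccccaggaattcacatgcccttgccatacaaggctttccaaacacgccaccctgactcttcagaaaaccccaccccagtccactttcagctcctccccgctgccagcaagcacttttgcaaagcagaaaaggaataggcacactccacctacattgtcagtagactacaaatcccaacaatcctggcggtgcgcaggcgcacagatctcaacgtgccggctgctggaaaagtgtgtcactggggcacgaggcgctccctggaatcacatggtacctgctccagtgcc
The Per3 window held 2 copies of the D-box TTATGTAA, starting 205 and 158 bases before the start, a motif found in 0.938% of the 32851 mouse promoter windows of this length. Per1 window 1 held 1 E-box, starting 166 bases before the start, and CACGTG was found in 7.15% of all windows. None of the searched motifs was found in the windows of Dbp and Nr1d1 or in Per1 window 2, which says only that these letters are not there. Among the members not printed, Ciart held 3 E-boxes, both windows of Tef held 1, and Nfil3 held 1 RORE core, a motif (TAGGTCA) found in 2.61% of windows.

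Of the 9 members that averaged at least 1 FPKM (fragments scaled for gene length and library total), Dbp, Per1 and Per3 rose and Nr1d1 fell in HFD against ND, and 5 did not pass. These are 3 of 9 higher and 1 of 9 lower by limma at an adjusted p under 0.05, where 20.5% of the 10296 tested genes passed, 5.36% higher and 15.1% lower. Between FSP and HFD 0 of 9 passed, where 3.74% of genes did, 2.83% higher and 0.913% lower. Dbp alone rose in FSP against ND, 1 of 9, where 1.03% of genes passed, 0.699% higher and 0.33% lower. Log2 changes below are differences in log2(FPKM + 1), which understate the change of genes at low levels. Over all tested genes the median change from ND to HFD was −0.21, that from HFD to FSP 0.12 and that from ND to FSP −0.07, and over the 9 members these medians were 0.34, 0.14 and 0.46. Scaling bears on the split: in HFD against ND 552 genes were higher and 1557 lower as deposited, 899 and 799 with median-ratio scaling (median −0.00), and 1125 and 1185 with quantile normalization. Among the members 5 were then higher and 0 lower under either scaling, namely Dbp, Tef, Per1, Per2 and Per3, and with equal FPKM totals 1 was higher (Dbp) and 2 were lower (Nr1d1 and Npas2), where 376 of all genes were higher and 1527 lower. The corresponding splits of all genes between FSP and HFD were 291 and 94 as deposited, 142 and 103 with median-ratio scaling and 249 and 194 with quantile normalization.

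**Figure D1:**
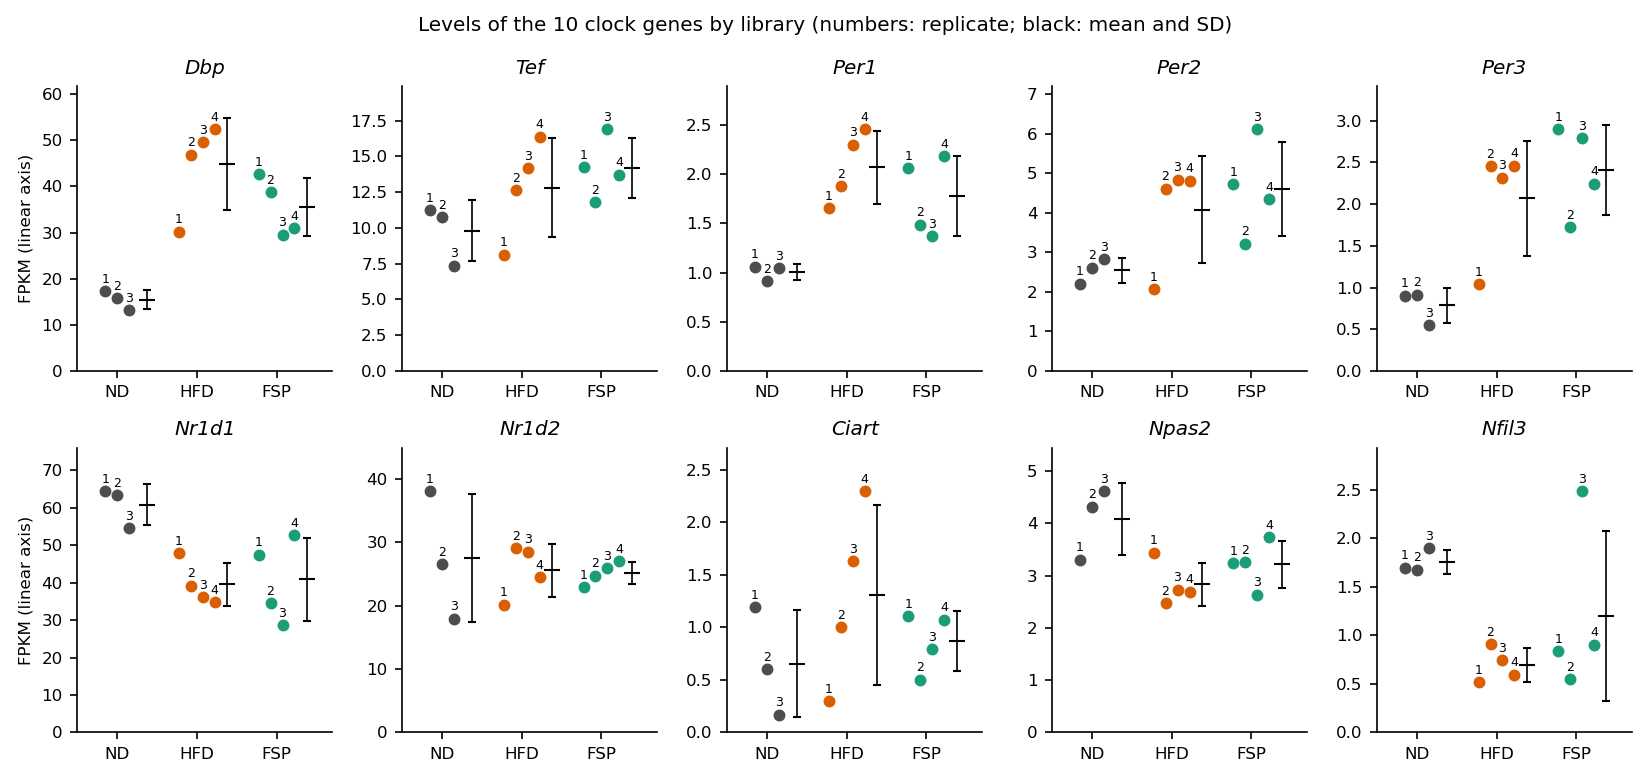
FPKM of the 10 clock genes (linear axes from 0) in the libraries of ND, HFD and FSP. Points are libraries, numbered by replicate, and black bars give the mean and SD. Dbp, Per1 and Per3 lie higher in every HFD and FSP library than in every ND library, and Nr1d1 lies lower. In HFD 1 Tef, Per2, Per3 and Ciart lie far below the other HFD libraries.

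The libraries held 31800000 to 38200000 fragments, estimated from low values of 658 single-exon genes. HFD 1 stood apart: the 13 mitochondrially encoded protein genes made up 40.4% of its summed FPKM, against 12.9% to 26.3% in the other libraries. Epithelial markers (12 of 12 present) summed to 8909 to 9768 FPKM in ND, 7640 to 9980 in HFD and 10369 to 11818 in FSP. A position score, the mean log2 level of 14 distal minus that of 10 proximal small intestine genes with a mean of at least 1 FPKM, spanned 0.16 to 3.04 in ND, −4.53 to −2.60 in HFD and −2.35 to 0.81 in FSP. The distal list summed to 3877 to 15119 FPKM in ND, 982 to 1709 in HFD and 2302 to 6717 in FSP, with Fgf15 at 0 in at least 1 library. The proximal list (11 of 11 present) summed to 1603 to 7623 FPKM in ND, 21438 to 30754 in HFD and 6952 to 18785 in FSP. Of 10 tested proximal genes 8 were higher and 1, Slc40a1, was lower in HFD against ND. Over all genes 5.36% were higher and 15.1% lower. The score thus moved with the groups, but it rests on expression alone, and whether the stretch of intestine differed is not given. With the score as a covariate 0 of 10296 genes passed in HFD against ND. Dbp then stood at 1.90 (SE 0.44, limma adjusted p = 0.371), so the score and diet cannot be told apart there. In whole tissue, fewer cells of a type and less RNA per cell cannot be told apart.

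Among the D-box activators, Dbp gave the widest separation. It encodes a PAR bZIP factor whose transcript is a common read-out of the clock. It stood at 17.2, 15.8 and 13.2 FPKM in ND 1 to 3, at 30.2, 46.9, 49.6 and 52.3 in HFD 1 to 4, and at 42.7, 38.7, 29.5 and 30.9 in FSP 1 to 4. Every HFD and every FSP library lay above every ND library, and HFD and FSP overlapped. The means were 15.4 ± 2.07 (SD, n = 3) in ND, 44.7 ± 9.96 (SD, n = 4) in HFD and 35.5 ± 6.30 (SD, n = 4) in FSP, so that the HFD mean was 2.91 times and the FSP mean 2.30 times that of ND. The log2 change was 1.46 (SE 0.20, limma adjusted p = 0.00104) in HFD against ND and 1.14 (SE 0.20, limma adjusted p = 0.0247) in FSP against ND. The first call held without each single library, and the second ended without FSP 1 (limma adjusted p = 0.0697), ND 1 (0.0935), ND 2 (0.128) or ND 3 (0.0579), with no filter (0.0692) and with the position score (0.0833). The exons of Dbp share 539 of 2993 bases with Sphk2 on the other strand, and Sphk2, a sphingosine kinase gene, had a log2 change of −0.21 in HFD against ND and did not pass (limma adjusted p = 0.335).

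Tef, the close relative of Dbp, did not follow it in size. It stood at 11.3, 10.8 and 7.36 FPKM in ND, at 8.12, 12.6, 14.2 and 16.4 in HFD and at 14.2, 11.8, 16.9 and 13.7 in FSP. HFD 1 lay within the ND range, the other HFD libraries lay above it, and all FSP libraries lay above ND. The log2 change was 0.34 (95% interval −0.14 to 0.81, limma adjusted p = 0.267) in HFD against ND and 0.50 (0.03 to 0.98, limma adjusted p = 0.316) in FSP against ND. With median-ratio scaling, which brings the median of all genes in HFD against ND to 0, Tef passed in that comparison (log2 change 0.58, limma adjusted p = 0.0379). The third gene of the family, Hlf, which is no member, spanned 0.395 to 1.13 FPKM in ND, 0.482 to 2.65 in HFD and 0.376 to 1.90 in FSP and did not pass in any comparison.

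The Period genes encode the repressors that close the loop. Per1, which also answers quickly to hormones and feeding, stood at 1.06, 0.913 and 1.05 FPKM in ND, at 1.65, 1.88, 2.30 and 2.45 in HFD and at 2.06, 1.49, 1.37 and 2.18 in FSP. All HFD and FSP libraries exceeded all ND libraries. The log2 change was 0.61 (SE 0.15, limma adjusted p = 0.0165) in HFD against ND, with an HFD mean 2.06 times that of ND, and 0.46 (SE 0.15, limma adjusted p = 0.184) in FSP against ND. The call in HFD ended without ND 1 (limma adjusted p = 0.0562) or ND 2 (0.0793), with libraries rescaled to equal FPKM totals (0.0505) and with the position score (0.503).

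Per3 showed the widest relative difference of the Period genes. It stood at 0.901, 0.914 and 0.546 FPKM in ND, at 1.04, 2.45, 2.32 and 2.46 in HFD and at 2.90, 1.72, 2.79 and 2.24 in FSP. HFD 1 was only just above ND, and the groups still did not overlap. The HFD mean was 2.63 times and the FSP mean 3.07 times that of ND, with log2 changes of 0.75 (SE 0.21, limma adjusted p = 0.0267) and 0.93 (SE 0.21, limma adjusted p = 0.0615). The call in HFD ended without HFD 2 (limma adjusted p = 0.057), HFD 3 (0.0643), HFD 4 (0.0591), ND 1 (0.0703), ND 2 (0.0707) or ND 3 (0.0858), with equal FPKM totals (0.0548), with no filter (0.0704) and with the position score (0.607). The difference between FSP and ND passed with median-ratio scaling (limma adjusted p = 0.022), with quantile normalization (0.0125), with a smooth muscle score as a covariate (0.0112) and without HFD 1 (0.0193).

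Per2 differed from its relatives through HFD 1. It stood at 2.20, 2.61 and 2.82 FPKM in ND, at 2.06, 4.60, 4.83 and 4.81 in HFD and at 4.73, 3.22, 6.10 and 4.34 in FSP. HFD 1 lay below all ND libraries, and every other HFD library and every FSP library lay above them. The log2 change in HFD against ND was 0.47 (95% interval −0.05 to 1.00, limma adjusted p = 0.166) with HFD 1 and 0.70 (limma adjusted p = 0.0221) without it. It was 0.64 (95% interval 0.12 to 1.16, limma adjusted p = 0.246) in FSP against ND.

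The nuclear receptor gene Nr1d1, which BMAL1 is known to drive like Dbp and the Period genes, lay lower where those lay higher. It stood at 64.5, 63.4 and 54.6 FPKM in ND, at 47.9, 39.2, 36.2 and 34.9 in HFD and at 47.5, 34.5, 28.7 and 52.8 in FSP. No HFD or FSP library reached the lowest ND value. The HFD mean was 0.650 and the FSP mean 0.672 of that of ND, with log2 changes of −0.62 (SE 0.20, limma adjusted p = 0.0464) and −0.60 (SE 0.20, limma adjusted p = 0.184). The call in HFD is close to the threshold: it ended with median-ratio scaling (log2 change −0.36, limma adjusted p = 0.271), with quantile normalization (0.135), with equal totals without mitochondrially encoded genes (0.103), with no filter (0.0984), with no intensity trend (0.05), and without FSP 1 (0.0514), HFD 2 (0.0732), HFD 3 (0.0961), HFD 4 (0.0874), ND 1 (0.149), ND 2 (0.147) or ND 3 (0.0648). With the position score the change was 0.24. The exons of Nr1d1 share 263 of 3077 bases with the thyroid hormone receptor gene Thra on the other strand, and the use of strand in counting is not stated. Thra spanned 16.5 to 18.4 FPKM in ND, 10.3 to 14.5 in HFD and 12.4 to 19.3 in FSP (log2 change −0.38 in HFD against ND, limma adjusted p = 0.118), and its part in the Nr1d1 values was not tested.

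The paralog Nr1d2 stood at 38.1, 26.5 and 17.96 FPKM in ND, at 20.1, 29.0, 28.5 and 24.5 in HFD and at 22.9, 24.7, 25.9 and 27.0 in FSP. The ND libraries spanned the range of both other groups. The log2 change was −0.06 (95% interval −0.52 to 0.41, limma adjusted p = 0.858) in HFD against ND and −0.07 (−0.53 to 0.40, limma adjusted p = 0.910) in FSP against ND.

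On the activating side of the loop, Npas2, the partner of BMAL1 in place of CLOCK, stood at 3.31, 4.32 and 4.62 FPKM in ND, at 3.44, 2.47, 2.73 and 2.69 in HFD and at 3.24, 3.26, 2.64 and 3.74 in FSP. HFD 1 and ND 1 overlapped, and the other HFD libraries lay below ND. The log2 change in HFD against ND was −0.40 (95% interval −0.72 to −0.09, limma adjusted p = 0.0662), and −0.48 without HFD 1, where it passed (limma adjusted p = 0.044). Between FSP and ND it was −0.27 (−0.58 to 0.05, limma adjusted p = 0.425).

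Bmal1, which is no member and is listed in the table under that name, is the partner that NPAS2 needs. It stood at 0.691, 0.755 and 0.961 FPKM in ND, at 0.525, 0.321, 0.259 and 0.252 in HFD and at 0.411, 0.280, 0.404 and 0.410 in FSP, under the filter of 1 FPKM on the mean. Both other groups lay wholly below ND, at 0.423 and 0.469 of its mean. The two-sided exact permutation p, unadjusted, was 0.0571 in HFD against ND and 0.0286 in FSP against ND, where 0.0286 is the smallest this design can give. In the fit without a filter its log2 change was −0.43 (SE 0.09, limma adjusted p = 0.0181) in HFD against ND and −0.39 (SE 0.09, limma adjusted p = 0.123) in FSP against ND. Clock stood at 7.66 ± 1.51 FPKM (SD, n = 3) in ND and did not pass, with log2 changes of −0.22 (limma adjusted p = 0.291) and −0.11 (0.750).

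The D-box repressor Nfil3 stood at 1.70, 1.68 and 1.90 FPKM in ND, at 0.521, 0.909, 0.746 and 0.595 in HFD and at 0.839, 0.548, 2.49 and 0.902 in FSP. Every HFD library lay below every ND library. Of the FSP libraries FSP 3 lay above ND and the other 3 lay below it. The HFD mean was 0.394 of that of ND, and the log2 change of −0.71 (95% interval −1.22 to −0.20) missed the threshold at limma adjusted p = 0.0519. It passed when the fit held HFD and ND alone (0.00869), without FSP 2 (0.0338) or FSP 3 (0.00675), and without an intensity trend (0.0487). At about 33.5 to 192 fragments per library, Nfil3 was among the least precisely measured members.

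Ciart, which encodes a repressor of the CLOCK and BMAL1 pair, averaged 0.969 FPKM and so fell just under the filter, while Nfil3, at 1.17, was the member just above it. It stood at 1.19, 0.603 and 0.170 FPKM in ND, at 0.297, 1.00, 1.63 and 2.30 in HFD and at 1.11, 0.502, 0.792 and 1.07 in FSP. All groups overlapped. The two-sided exact permutation p was 0.286 in HFD against ND and 0.514 in both other comparisons, and the lowest library rested on about 14.3 fragments.

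**Figure D2:**
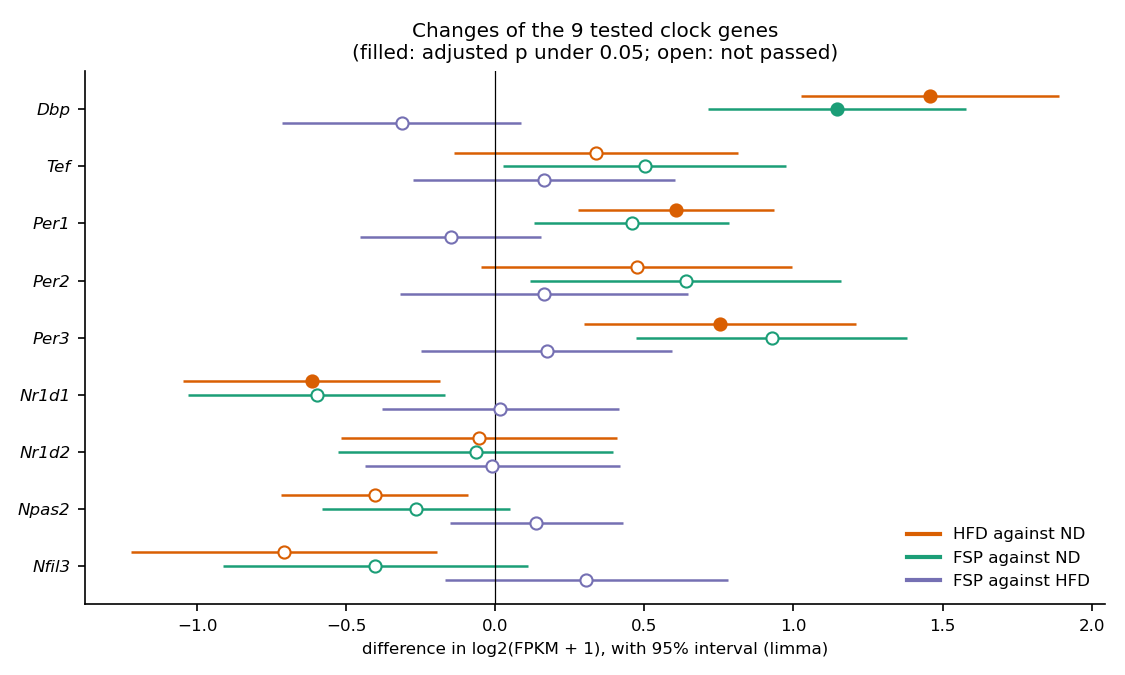
Differences in log2(FPKM + 1) of the 9 tested clock genes (rows) in each comparison (colours), with 95% intervals from limma. Filled points passed an adjusted p of 0.05. In HFD against ND Dbp, Per1, Per3 and Nr1d1 are filled, in FSP against ND only Dbp is, and all intervals of FSP against HFD hold 0.

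The comparison of FSP with HFD asks whether the preparation went with a different clock state. Over the 9 tested members 0 passed by limma, where 3.74% of all genes did, and 0 had an unadjusted p under 0.05. The position score did not overlap between these groups either, at −4.53 to −2.60 in HFD and −2.35 to 0.81 in FSP. With it as a covariate 0 of 10296 genes passed here. Values below are from the fit without it. The largest difference was that of Dbp, at −0.31 (95% interval −0.71 to 0.09, limma adjusted p = 0.389). Nfil3 stood at 0.31 (−0.17 to 0.78), Per3 at 0.17 (−0.25 to 0.59), Per1 at −0.15 (−0.45 to 0.15), Npas2 at 0.14 (−0.15 to 0.43) and Nr1d1 at 0.02 (−0.38 to 0.42). For Nfil3 and Npas2 the interval holds a full return to ND, as their changes from ND to HFD were −0.71 and −0.40. For the members called in HFD against ND it does not. Those changes were 1.46 for Dbp, 0.61 for Per1, 0.75 for Per3 and −0.62 for Nr1d1. Smaller changes lie within the intervals, so the groups are not shown to be alike. The 2 comparisons with ND share the ND libraries and both comparisons with HFD share the HFD libraries.

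Overlap between groups was also counted. In HFD against ND 3 of 9 members did not overlap and were higher (Dbp, Per1, Per3), where 9.28% of all genes did so, and 2 were lower (Nr1d1, Nfil3), where 33.6% did. Between FSP and ND 5 of 9 were higher in FSP (Dbp, Tef, Per1, Per2, Per3), where 5.57% of genes were, and 1 was lower (Nr1d1), where 10.9% were. Between FSP and HFD 0 of 9 were separate, where 8.52% of genes were higher and 2.3% lower. Without HFD 1, 8 of 9 members did not overlap in HFD against ND, 5 of them higher and 3 lower, where 13.3% of all genes were higher and 34.2% lower.

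HFD 1 held the lowest HFD value in 8 of 10 members and the highest in the other 2, Nr1d1 and Npas2. Bmal1 was also highest in HFD 1, and Cry1, Cry2 and Hlf were lowest there. After rescaling to equal totals without mitochondrially encoded genes, HFD 1 was still lowest in 6 of 10 members and highest in the same pair, with Per2 at 2.40 FPKM against 4.64 to 4.87 in the other HFD libraries. Other groups held such libraries too: by the same rescaling FSP 2 was lowest of its group in 7 of 10 members and ND 3 in 6 of 10. How often each library was lowest over all genes was not counted, so these counts are not shown to be particular to the members. The median change of all tested genes in HFD against ND was −0.21, and −0.13 without HFD 1. The same libraries held the lowest summed smooth muscle genes of their groups. HFD 1 stood at 178 FPKM against 383 to 661 in the other HFD libraries. FSP 2 stood at 129 against 346 to 889, and ND 3 at 481 against 638 to 681. The part of RNA composition or of smooth muscle content in the position of these libraries was not tested beyond that rescaling.

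Ratios within a library do not depend on how that library is scaled. The log2 ratio of Npas2 to Dbp spanned −2.38 to −1.51 in ND, −4.28 to −3.14 in HFD and −3.72 to −3.05 in FSP. That of Bmal1 to Dbp spanned −4.64 to −3.78 in ND, −7.70 to −5.85 in HFD and −7.11 to −6.19 in FSP. Both ratios were lower in every HFD and FSP library than in every ND library, HFD 1 included. All ratios to Dbp share that denominator, which by itself separated ND from all other libraries. Their separation is therefore not independent of that of Dbp, nor of each other. The ratio of Nr1d1 to Dbp was tight in ND, at 1.90 to 2.05, and lay between −0.59 and 0.77 in all other libraries. The ratio of Nfil3 to Dbp spanned −3.34 to −2.79 in ND, −6.46 to −5.69 in HFD and −6.14 to −3.57 in FSP, where FSP 3 was highest. The ratio of Per1 to Per3 was −0.00 to 0.94 in ND, −0.39 to 0.67 in HFD and −1.03 to −0.04 in FSP, so that HFD overlapped both other groups and every FSP library lay below every ND library. The ratios to Bmal1 and of Nr1d1 to Dbp were chosen after the values were seen.

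**Figure D3:**
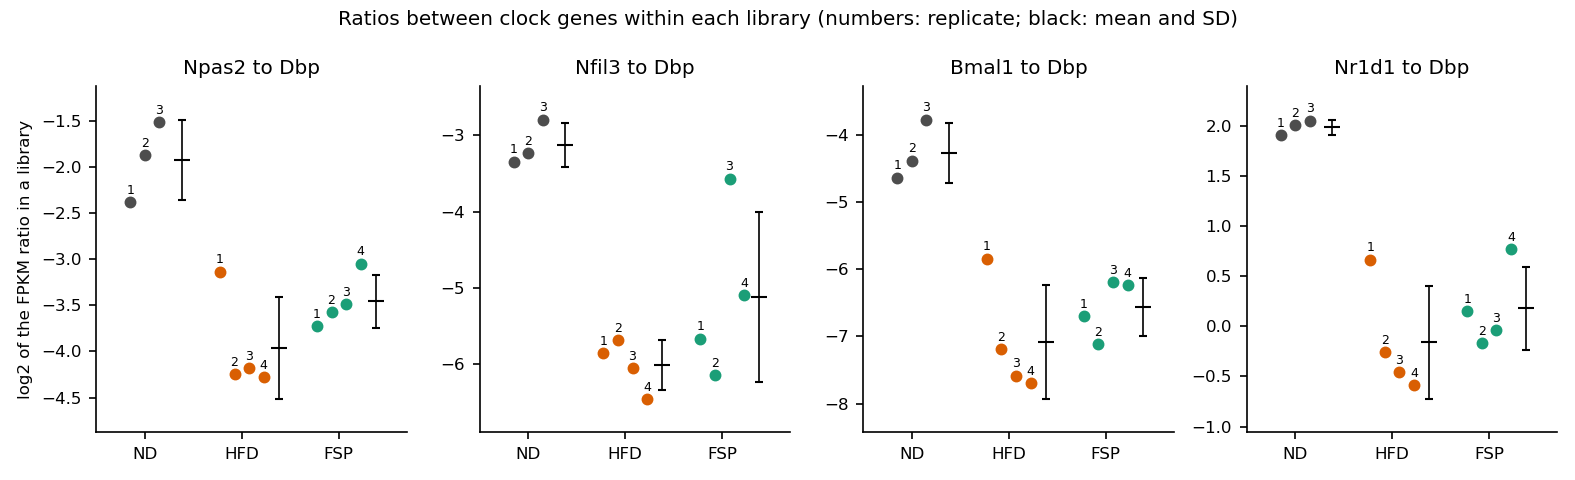
Log2 of the FPKM ratio of Npas2, Nfil3, Bmal1 and Nr1d1 to Dbp in each library (points, numbered by replicate; black bars: mean and SD). Every HFD and FSP library lies below every ND library in all 4 ratios, with FSP 3 closest to ND for Nfil3. All 4 share Dbp as the denominator, which by itself separates ND from the other libraries.

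Of 18 other core clock genes, 9 averaged at least 1 FPKM. In HFD against ND 1 rose and 8 did not pass (median log2 change −0.22), where 20.5% of all genes passed and their median was −0.21. In each comparison with FSP 0 of 9 passed by limma, where 3.74% (against HFD) and 1.03% (against ND) of all genes did. At an unadjusted p under 0.05 there were 1 (against HFD) and 2 (against ND). The gene that rose was Bhlhe40, which encodes the repressor DEC1, a competitor for E-boxes. It stood at 14.9, 13.2 and 7.99 FPKM in ND, at 22.4, 19.1, 28.5 and 32.2 in HFD and at 24.2, 21.5, 40.0 and 23.3 in FSP. All HFD and FSP libraries exceeded all ND libraries, with log2 changes of 1.04 (SE 0.26, limma adjusted p = 0.0167) and 1.11 (SE 0.26, limma adjusted p = 0.0667). The cryptochrome genes Cry1 and Cry2 had log2 changes of −0.17 (limma adjusted p = 0.510) and −0.41 (0.131) in HFD against ND, and the kinase gene Csnk1d one of −0.35 (0.10), and these did not pass. Fbxl21, which lay under the filter, spanned 0.331 to 0.471 FPKM in ND, 0.0860 to 0.151 in HFD and 0.0773 to 0.199 in FSP (two-sided exact permutation p = 0.0286 in each comparison with ND, unadjusted). In the fit without a filter it passed in both, with log2 changes of −0.31 (limma adjusted p = 0.00639) and −0.29 (0.0452).

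**Figure D4:**
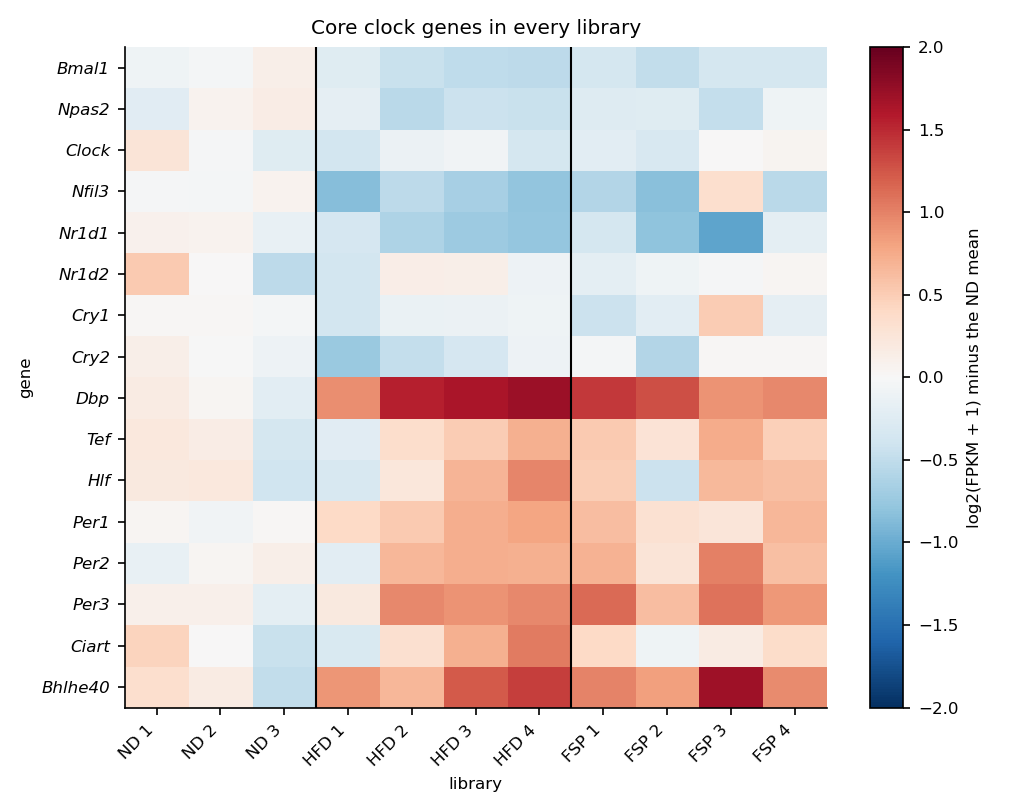
Log2(FPKM + 1) minus the ND mean for 16 core clock genes (rows) in each library (columns), red above and blue below ND. Dbp, Per3 and Bhlhe40 are red in all HFD and FSP libraries and Bmal1 is blue in all of them, while HFD 1 is pale or blue for Tef, Hlf, Per2 and Ciart.

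Lists of genes outside the loop were read beside the 20.5% of all genes that passed in HFD against ND, and nothing particular to a list is drawn from its count. Of 12 tested output genes (15 listed), 2 rose and 2 fell in HFD against ND, namely Pdk4 (1.25) and the cytochrome P450 reductase gene Por (1.22), and Tars (−1.01) and Cdkn1a (−0.52). Between HFD and FSP Pdk4 fell (−1.07, limma adjusted p = 0.029) and 11 did not pass. Of 10 lipid genes tied to NFIL3 in the gut, 4 rose and 6 did not pass in HFD against ND, with a median of 0.58: Fabp1 (2.96), Dgat2, which makes triglyceride (1.64), the lipid droplet coat gene Plin2 (0.92) and Cd36 (1.23). In both comparisons with FSP 0 of these 10 passed by limma, with 4 at an unadjusted p under 0.05 in each. Of 16 transport and digestion genes known to cycle in the gut, 2 rose and 3 fell in HFD against ND, among them Apoa4 (4.27), the efflux pump gene Abcg2 (−1.69) and the cholesterol uptake gene Npc1l1 (−0.90). Between HFD and FSP Npc1l1 (0.80) and Abcg2 (0.68) rose and 14 did not pass. Fabp1 is itself among the proximal genes of the position score.

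Hormone and feeding signals reach Per1 and Bhlhe40 through other elements, so genes of those signals were set beside them. Of 10 tested immediate early genes 3 rose and 7 did not pass in HFD against ND (median 0.55), namely Jun (0.90, limma adjusted p = 0.00417), Btg2 (0.76, 0.0186) and Fosb (1.31, 0.0318). Jun also rose in FSP against ND (0.85, limma adjusted p = 0.037) and 9 did not pass. The list summed to 158 to 192 FPKM in ND, 193 to 312 in HFD and 222 to 483 in FSP. The mean log2 level of the list overlapped, at 2.74 to 3.10 in ND, 3.05 to 3.61 in HFD and 3.18 to 4.07 in FSP, with HFD 2 below ND 1. Of 12 tested glucocorticoid targets, Per1 included, 4 rose, 2 fell and 6 did not pass in HFD against ND. Ddit4 (0.76) and the metallothionein gene Mt1 (0.99) were among the rises and Cebpd fell (−1.16). Cebpd rose from HFD to FSP (0.91, limma adjusted p = 0.0175) and 11 did not pass. Their part in the levels of Per1 and Bhlhe40 was not tested.

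Markers of other cells were read beside these results. Smooth muscle genes (10 of 10 present) summed to 481 to 681 FPKM in ND, 178 to 661 in HFD and 129 to 889 in FSP, and 0 of 10 passed by limma in HFD against ND. With their score as a covariate, chosen after the data were seen, Dbp kept a log2 change of 1.54 (limma adjusted p = 0.00178), Per1 of 0.68 (0.00607) and Per3 of 0.91 (0.00313), while the call of Nr1d1 ended (−0.56, 0.079). B and plasma cell genes (11 of 12 present) summed to 116 to 163 FPKM in ND, 202 to 352 in HFD and 186 to 876 in FSP. With that score as a covariate, also chosen after the data were seen, the same 4 members passed, where 12.4% of all genes did. Dbp stood at 1.41 (limma adjusted p = 0.00424), Per1 at 0.65 (0.0396), Per3 at 0.89 (0.0382) and Nr1d1 at −0.80 (0.0395). Adipocyte genes (9 of 9 present) summed to 107 to 124 FPKM in ND, 116 to 220 in HFD and 101 to 533 in FSP, and their part was not tested.

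The genes whose pattern over the 11 libraries was most like that of Dbp were ranked by Pearson r of log2(FPKM + 1) among 9901 named genes outside the clock lists. The highest were Nat8f5 (r = 0.929), Hid1 (0.927), the bZIP factor gene Cebpb (0.925), Thoc7 (0.920) and Sytl3 (0.911). The lowest were Clp1 (−0.944), the purine phosphorylase gene Pnp (−0.923), the chaperone gene Dnajb9 (−0.922), Tmem252 (−0.909) and Cmtm6 (−0.909). In each of these 10 genes the ND libraries lay apart from all others, as in Dbp, so r rests in part on that step. Nat8f5, for example, spanned 28.3 to 33.1 FPKM in ND, 62.1 to 177 in HFD and 63.6 to 93.6 in FSP. On deviations from the group means, r with Dbp was weaker to an unequal degree. It was 0.343 for Sytl3, 0.624 for Nat8f5, 0.706 for Cebpb and −0.865 for Pnp.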

How the data were processed

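RNA of mouse intestine was measured in 11 libraries grouped by their titles (ND 3, HFD 4, FSP 4). Per the labels' protocols, extraction used TRIzol and library preparation the VAHTS Universal V6 kit. Tools named in the submitters' processing notes are fastp, HISAT2, HTSeq and R 3.2.0, with mm10 as the build. The sources used here give neither annotation nor strand setting. The authors deposited FPKM per library, scaled by each library's own total, so that an abundant class of RNA lowers all other genes. The 11 single-library tables held the same values for shared genes (0 differed by over 1e-06). Depth was estimated as the total at which low FPKM of 658 single-exon genes came closest to whole fragments, and 73.4% to 78.3% of values up to about 10 fragments lay within 0.05 of one. Fragments behind a member assume all GENCODE M21 exon bases.

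The test was limma 3.58.1 (R 4.3.3) applied to log2(FPKM + 1) of the 10296 genes with a mean of at least 1 FPKM, in a single fit of 3 groups with an intensity trend, two-sided, with Benjamini-Hochberg adjustment over all tested genes and a threshold of 0.05. The script was tested on simulated data. Members under the filter had an exact permutation test, unadjusted. The members and lists were chosen with earlier results of these data known. Named genes were the members, other core clock genes, up to 4 genes with the smallest p per list and the 5 most and 5 least like Dbp. A planned comparison of proteins was not made, and some listed genes are not reported here by name. Alternatives covered scaling, pseudocount, filter, trend, samples in the fit, the replicate number, the position score and each library left out.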

Additional observations from a re-analysis of the deposited data

Results flagged for a closer look

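In HFD 1, Per2 stood at 2.06 FPKM, where the nearest of the other HFD libraries was at 4.60 and the highest at 4.83. The gap was 0.917 of the range of the group, above Dixon's 95% limit for 4 samples. In the same library Per3 stood at 1.04 FPKM, where the nearest was at 2.32 and the highest at 2.46, a gap of 0.900 of the range. These were 2 of 20 groups checked, and chance passes this limit in about 1 of 20. HFD 1 also had the highest mitochondrial share, 40.4% of summed FPKM, whose part in these values was not tested beyond the rescaling given above.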

How the results depend on the processing

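Calls of members in FSP against HFD were 0 under all 24 alternatives, where 0% to 6.62% of all genes passed. Without single libraries they were 0 to 0, where 0.467% to 4.46% of all genes passed. The fit with the position score called 0 of 10296 genes in this comparison too. In HFD against ND, where 4 members passed, the count was 2 with no filter, where 6.99% of all genes passed. It was 0 with the position score as a covariate, a fit that called 0 of 10296 genes there and so says nothing about the members. It ran from 1 to 6 without single libraries (1 without ND 1 or ND 2, 2 without ND 3, HFD 2, HFD 3 or HFD 4, and 6 without HFD 1), while the share of all genes that passed ran from 8.28% to 25.9% (8.54% without ND 1, 8.28% without ND 2, 15.7% without HFD 1). In FSP against ND, where 1 passed, the count was 2 with median-ratio scaling, quantile normalization or the smooth muscle score, where 0.719%, 1.86% and 1.1% of all genes passed. It was 0 with no filter, the position score or the replicate block, where 0.239%, 0.185% and 0.748% did. Without single libraries it ran from 0 to 2 (all genes 0.126% to 1.98%). With the replicate block 3 members and 22.9% of all genes passed in HFD against ND, the call of Per3 ending (limma adjusted p = 0.059). In FSP against ND that of Dbp ended (0.0645). Same-numbered libraries of different groups correlated in their deviations at −0.099 to 0.454 and differently numbered ones at −0.616 to 0.647. Members whose groups did not overlap numbered 5 to 8 in HFD against ND, 6 to 7 in FSP against ND and 0 to 1 in FSP against HFD without single libraries (8 and 1 without HFD 1). The shares of all genes in those fits were 42.8% to 57.1%, 16.4% to 31.3% and 10.8% to 24.5%.

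Direction was not settled for Nr1d2, nor for Nr1d1 in FSP against HFD. There Nr1d1 became −0.085 with equal totals without mitochondrially encoded genes, −0.129 under median-ratio scaling, −0.115 under quantile normalization and −0.513 under the position score, and spanned −0.117 to 0.168 without single libraries (below 0 without FSP 1, FSP 4, HFD 3 or HFD 4). Nr1d2 in FSP against HFD became 0.086 with equal totals and spanned −0.115 to 0.053 without single libraries. In FSP against ND it became 0.043 with median-ratio scaling, 0.239 with the position score and 0.008 with the smooth muscle score, and spanned −0.329 to 0.193 without single libraries (above 0 without ND 1). In HFD against ND it became 0.195 with median-ratio scaling, 0.144 with quantile normalization, 0.749 with the position score, 0.015 with the B and plasma cell score and 0.021 with the smooth muscle score, and spanned −0.318 to 0.203 without single libraries (above 0 without HFD 1 or ND 1). With the position score Nr1d1 became 0.236 and Per2 −0.055 in HFD against ND. Without single libraries, FSP against HFD spanned −0.063 to 0.292 for Per2, −0.013 to 0.276 for Per3 and −0.024 to 0.286 for Tef, each below 0 only without HFD 1. None of these passed by limma. The cause was not tested. Among the clock genes whose fragments were estimated, depth limits mainly Ciart, Nfil3, Bmal1 and Hlf, each under 100 fragments in at least 1 library. Fragments were not estimated for Fbxl21, which spanned only 0.0773 to 0.471 FPKM over all libraries.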

Other observations

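FSP 3 combined values that no other library of its group showed. It had the highest Nfil3 (2.49 FPKM), Cry1 (7.22, against 3.30 to 4.90 in all other libraries), Bhlhe40 (40.0), Tef (16.9) and Per2 (6.10) of all 11 libraries, and the lowest Nr1d1 (28.7). Its Bmal1 stood at 0.404 FPKM, within the other FSP libraries. These genes were picked out after their values were seen. The position score of FSP 3 stood at −2.35, against 0.03 to 0.81 in the other FSP libraries. Its B and plasma cell genes summed to 186 FPKM, against 429 to 876 in those libraries. The part of either in the clock values of FSP 3 was not tested.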
